A study of Arabidopsis thaliana with 18 samples.

Results

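The 10 genes described here encode enzymes of jasmonate synthesis in Arabidopsis thaliana: the lipoxygenases LOX2 (AT3G45140), LOX3 (AT1G17420) and LOX4 (AT1G72520), the allene oxide synthase AOS (AT5G42650), the allene oxide cyclases AOC1 (AT3G25760), AOC2 (AT3G25770), AOC3 (AT3G25780) and AOC4 (AT1G13280), the reductase OPR3 (AT2G06050) and the conjugating enzyme JAR1 (AT2G46370). They were chosen by locus identifier from a deposited table of 33557 genes, and all 10 were found in it and passed the filter on low values. The comparison had 3 RNA-seq libraries from whole seedlings per genotype: the mutant stch4-1, and wild-type Col-0 (WT), which is also the background of the mutant. Seedlings of both were 14 days old, had grown on sucrose-containing half-strength MS agar and had spent 4 h at 4 °C. STCH4 goes under the name REIL2 too and belongs to a zinc-finger protein family that helps finish large ribosomal subunits in the cytoplasm, and the study's title concerns its part in cold tolerance. The labels name a single mutant allele and no complemented line, so its effect cannot be told apart from that of other differences between the lines. The samples taken at 0 h and 24 h of cold were not analysed here, so the values say how the genotypes differ in the cold and not how the genes respond to cold.

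Jasmonates are oxylipin hormones of wounding, defence, fertility and growth restraint. In the plastid, a 13-lipoxygenase adds oxygen to linolenic acid, allene oxide synthase turns the hydroperoxide into an unstable epoxide, and allene oxide cyclase closes the ring to give OPDA. OPDA moves to the peroxisome, where OPR3 reduces it and rounds of beta-oxidation shorten its side chain to jasmonic acid. JAR1 then joins jasmonic acid to isoleucine, and the conjugate is bound by the receptor COI1 together with JAZ repressors, whose removal frees MYC2 and its relatives. Many synthesis genes are themselves targets of MYC2, and LOX2 is a target of TCP factors such as TCP4.

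The 300 bases before the annotated gene start of each of the 10 genes were searched on both strands for the G-box CACGTG, which MYC2 binds, and for the TCP4 core TGGTCC. The sequences of 4 genes are shown: the 3 enzymes LOX2, AOS and AOC1, which rose in the mutant, and JAR1, which did not pass the test. They were read from the RefSeq assembly TAIR10.1, run 5′ to 3′ toward the gene, and carry the motif matches in capitals.
LOX2, chr3:16524945-16525244, plus strand: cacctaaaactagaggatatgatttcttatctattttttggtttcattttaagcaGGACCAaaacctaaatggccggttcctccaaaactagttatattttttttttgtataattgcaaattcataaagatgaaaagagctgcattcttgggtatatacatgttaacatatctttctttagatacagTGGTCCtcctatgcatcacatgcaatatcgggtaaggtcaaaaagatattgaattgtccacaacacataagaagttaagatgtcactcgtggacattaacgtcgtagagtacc
AOS, chr5:17099596-17099895, minus strand: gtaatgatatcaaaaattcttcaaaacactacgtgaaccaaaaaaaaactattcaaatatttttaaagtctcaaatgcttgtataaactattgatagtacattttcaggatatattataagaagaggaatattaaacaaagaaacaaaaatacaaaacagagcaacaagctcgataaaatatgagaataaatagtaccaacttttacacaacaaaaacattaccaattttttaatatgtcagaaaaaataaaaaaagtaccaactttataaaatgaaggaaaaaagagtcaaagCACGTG
AOC1, chr3:9403479-9403778, plus strand: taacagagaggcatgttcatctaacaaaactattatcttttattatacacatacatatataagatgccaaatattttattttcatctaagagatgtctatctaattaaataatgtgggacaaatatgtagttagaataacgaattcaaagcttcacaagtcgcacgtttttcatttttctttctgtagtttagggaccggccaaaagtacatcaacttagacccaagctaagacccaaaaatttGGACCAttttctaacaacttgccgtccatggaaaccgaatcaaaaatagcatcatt
JAR1, chr2:19033286-19033585, plus strand: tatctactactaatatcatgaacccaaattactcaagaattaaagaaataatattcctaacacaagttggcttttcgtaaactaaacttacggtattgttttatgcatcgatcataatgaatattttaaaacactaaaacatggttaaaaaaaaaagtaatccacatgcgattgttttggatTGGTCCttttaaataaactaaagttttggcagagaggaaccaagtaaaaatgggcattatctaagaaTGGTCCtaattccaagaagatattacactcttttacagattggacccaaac
The LOX2 window held the TCP4 core at 245 and 113 bases before the gene start, and the JAR1 window held it at 118 and 51 bases. AOC1 had 1 match, at 56 bases, and AOC3 had 1, at 259 bases. In all, 4 of the 10 windows held the TCP4 core, which is found in 6.88% of the same windows of 27443 protein-coding genes. The G-box was in 1 of the 10 windows, that of AOS, 6 bases before the gene start, and in 7.09% of all windows. No window held both motifs. The AOC4 window overlaps another annotated gene, AT1G13270. A match describes the letters of a window, and whether the factor acts there was not tested.

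In stch4-1, 9 of the 10 synthesis genes had more transcript than in WT and 0 had less. The rise was modest, from 1.15 times for LOX2 to 1.38 times for AOC1, and it ran from the lipoxygenases through AOS and the cyclases to OPR3. JAR1, which makes the active conjugate, stood at nearly the same level in both genotypes. Genes were called at a Benjamini-Hochberg adjusted p under 0.05 in limma, a linear model with shared variance estimates, adjusted over all 19289 genes tested. Fold changes are stch4-1 over WT on the log2(FPKM + 1) scale, and FPKM counts fragments relative to the length of the transcript and the size of the library. By the same rule 32.6% of all tested genes were called, 18.5% as higher and 14.0% as lower, which makes a single higher call common. The median log2 fold change was 0.33 over the 10 genes and 0.01 over all tested genes. In 9 of the 10 genes the lowest stch4-1 library lay above the highest WT library, as it did in 25.1% of all tested genes.

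**Figure D1:**
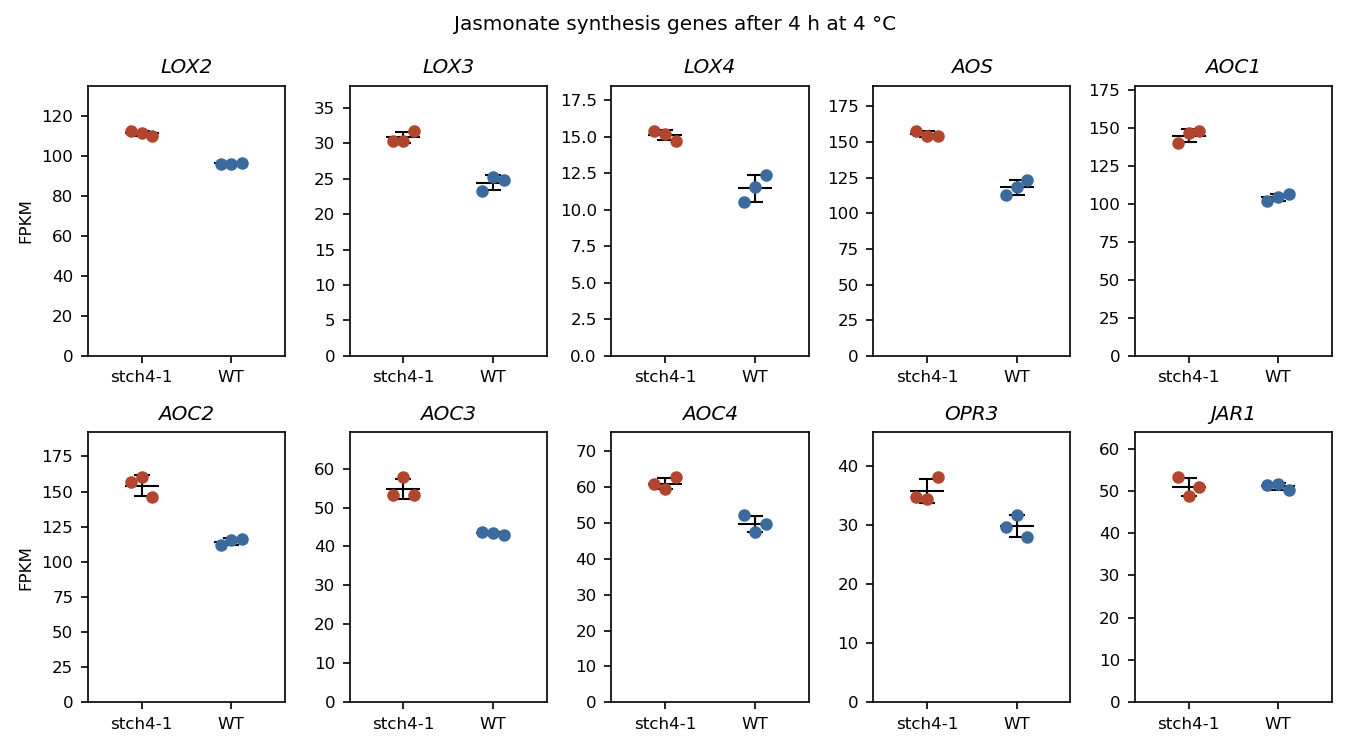
Each panel plots FPKM of 1 gene on an axis that starts at 0, with 1 point per library (red stch4-1, blue WT) and the mean ± SD of 3 libraries in black. All stch4-1 points lie above all WT points in 9 panels, and the groups overlap only for JAR1.

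The mutated gene was measured first as a check of the labels. REIL2 stood at 5.63 ± 0.184 FPKM in stch4-1 and 33.8 ± 2.43 FPKM in WT (SD, n = 3 each). Summed FPKM ran from 947218 to 987059 in stch4-1 and from 878394 to 919309 in WT. Every stch4-1 sum thus lay above every WT sum, and the reported fold changes were not scaled to equal sums. FPKM holds no total count, but steps between low values gave depths relative to the shallowest library, which ran from 1.02 to 1.22 in stch4-1 and from 1 to 1.45 in WT. The table's columns cannot be tied to single sample titles, and the letters a, b and c follow its column order within a genotype. Whether the 3 libraries of a genotype stem from independently grown seedlings is not stated, and the p-values thus rest on a spread that may be technical. In RNA from whole seedlings, fewer cells of a type and less RNA per cell cannot be told apart.

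The lipoxygenases open the pathway. LOX2 (AT3G45140), the main leaf enzyme and the source of much of the jasmonate made on wounding, stood at 112, 112 and 109.7 FPKM in stch4-1 libraries a, b and c, against 96.1, 96.1 and 96.3 FPKM in WT libraries a, b and c. Its WT libraries were nearly equal, with a coefficient of variation of 0.141%, and every stch4-1 library was above them. LOX2 rose by a log2 fold change of 0.21 ± 0.03 (SE, limma adjusted p = 0.00193), the smallest change among the 9 called. Under quantile normalization, which forces all libraries to 1 distribution of values, its log2 fold change was 0.10 and the call was lost (limma adjusted p = 0.0566). The other 8 calls held there, beside 13.6% of all genes called higher.

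LOX3 and LOX4 are a closely related pair of 13-lipoxygenases needed together for male fertility. LOX3 (AT1G17420) read 30.4, 30.3 and 31.7 FPKM in stch4-1, against 23.3, 25.3 and 24.8 FPKM in WT. The groups were apart by more than their own width, and the log2 fold change was 0.32 ± 0.05 (SE, limma adjusted p = 0.00177). LOX4 (AT1G72520), the lowest of the 10 genes, read 15.4, 15.2 and 14.7 FPKM in stch4-1, against 10.5, 11.6 and 12.4 FPKM in WT. The coefficient of variation of LOX4 was 2.27% in stch4-1 and 8.01% in WT, so the WT libraries were the more spread out. Its log2 fold change was 0.37 ± 0.07 (SE, limma adjusted p = 0.00411). No run of 50 bases was shared between the mRNAs of LOX2, LOX3 and LOX4, and the coding sequences of LOX3 and LOX4 were 79.7% identical.

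AOS (AT5G42650), the single allene oxide synthase of Arabidopsis and a P450 enzyme without which little jasmonate is made, was the highest of the 10 genes. It read 158, 155 and 154 FPKM in stch4-1, against 113, 119 and 123 FPKM in WT. The mutant libraries were tight and all lay above the WT range. The log2 fold change was 0.39 ± 0.04 (SE, limma adjusted p = 0.00038).

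The cyclases AOC1, AOC2 and AOC3 stand in a row on the plus strand of chromosome 3 (chr3:9403779-9411090, TAIR10.1), 1330 and 1088 bases apart, and AOC4 lies on chromosome 1. Their coding sequences were 89.9% identical between AOC1 and AOC2, 81.5% between AOC1 and AOC3, and 70.4% between AOC1 and AOC4. How reads matching several genes were assigned is not given in the sources used here. Of 50-base windows of the mRNA, 2.1% in AOC1, 0.0799% in AOC2, 1.55% in AOC3 and 0 in AOC4 occurred unchanged in another cyclase, so reads that long would seldom match more than 1 of them exactly.

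AOC1 (AT3G25760) read 140.4, 147 and 148 FPKM in stch4-1, against 102, 105 and 107 FPKM in WT. It had the largest change of the 10 genes, a log2 fold change of 0.47 ± 0.04 (SE, limma adjusted p = 0.000118), and 4.57% of all tested genes had a larger one. AOC2 (AT3G25770) read 157, 160.0 and 146 FPKM in stch4-1, against 112, 115 and 116 FPKM in WT. Library c was the lowest of the mutant for AOC2 and the highest for AOC1, and both genes stayed clear of WT. The AOC2 log2 fold change was 0.43 ± 0.04 (SE, limma adjusted p = 0.000351).

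AOC3 and AOC4 were expressed at less than the level of AOC1 and AOC2. AOC3 (AT3G25780) read 53.2, 57.7 and 53.3 FPKM in stch4-1, against 43.8, 43.5 and 42.8 FPKM in WT (log2 fold change 0.33 ± 0.04, SE, limma adjusted p = 0.00113). AOC4 (AT1G13280), away from the cluster, read 60.7, 59.4 and 62.6 FPKM in stch4-1, against 52.1, 47.5 and 49.5 FPKM in WT (log2 fold change 0.29 ± 0.04, SE, limma adjusted p = 0.00235). The copy on chromosome 1 was thus higher in the mutant as well as the 3 copies of the cluster.

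OPR3 (AT2G06050), the peroxisomal reductase whose loss makes plants male sterile, read 34.7, 34.4 and 38.01 FPKM in stch4-1, against 29.7, 31.7 and 28.03 FPKM in WT. The groups did not overlap, but their gap was smaller than the range within each. OPR3 rose by a log2 fold change of 0.25 ± 0.06 (SE, limma adjusted p = 0.0145). It was no longer called without WT library c (0.21, limma adjusted p = 0.0516), nor when genes below the filter were also tested (limma adjusted p = 0.0716).

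JAR1 (AT2G46370) read 53.2, 48.8 and 50.9 FPKM in stch4-1, against 51.5, 51.7 and 50.1 FPKM in WT. The WT libraries lay inside the range of the mutant libraries. The log2 fold change was -0.0049 (95% interval -0.10 to 0.09, limma adjusted p = 0.941), and 52.7% of all tested genes had a larger one. The interval does not include the change of any of the 9 called genes, the smallest of which was 0.21.

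By level, AOS, AOC2, AOC1 and LOX2 were the 4 highest in both genotypes. In stch4-1 the order went on with AOC4, AOC3, JAR1, OPR3, LOX3 and LOX4, and in WT it went on with JAR1, AOC4, AOC3, OPR3, LOX3 and LOX4. JAR1 was number 7 of the order in stch4-1 and number 5 in WT, where its range overlapped that of AOC4. The libraries of AOS and AOC2 overlapped in both genotypes, and those of AOC2 and AOC1 overlapped in stch4-1. All other neighbours in the order were separate within their genotype. FPKM is a level per transcript length, so these levels can be set beside each other.

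Both family totals were higher in stch4-1. The 4 cyclases summed to 411, 424 and 409.9 FPKM in stch4-1, against 309.8, 311 and 315 FPKM in WT. The 3 lipoxygenases summed to 158, 157 and 156 FPKM in stch4-1, against 129.9, 133 and 133 FPKM in WT. Each gene in these sums was itself higher in every stch4-1 library than in any WT library, so neither total could overlap between genotypes. The exact two-sided permutation p of 0.1, the smallest that 3 against 3 libraries allow, was thereby fixed and adds no evidence.

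LOX2 made 70.8% ± 0.457 of lipoxygenase FPKM in stch4-1 and 72.8% ± 0.992 in WT (SD, n = 3 each), with no overlap (exact two-sided permutation p = 0.1). AOC1 made 35.0% ± 1.04 of cyclase FPKM in stch4-1 and 33.5% ± 0.478 in WT (SD, n = 3 each), also without overlap (exact two-sided permutation p = 0.1). The share of AOC2 overlapped, at 37.2% ± 1.36 in stch4-1 and 36.7% ± 0.494 in WT (SD, n = 3 each, exact two-sided permutation p = 0.6). With 3 libraries per genotype none of the 9 totals and shares could pass a threshold of 0.05, whatever the values (the Benjamini-Hochberg adjusted value at the smallest exact p was 0.15), so these are descriptions.

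**Figure D2:**
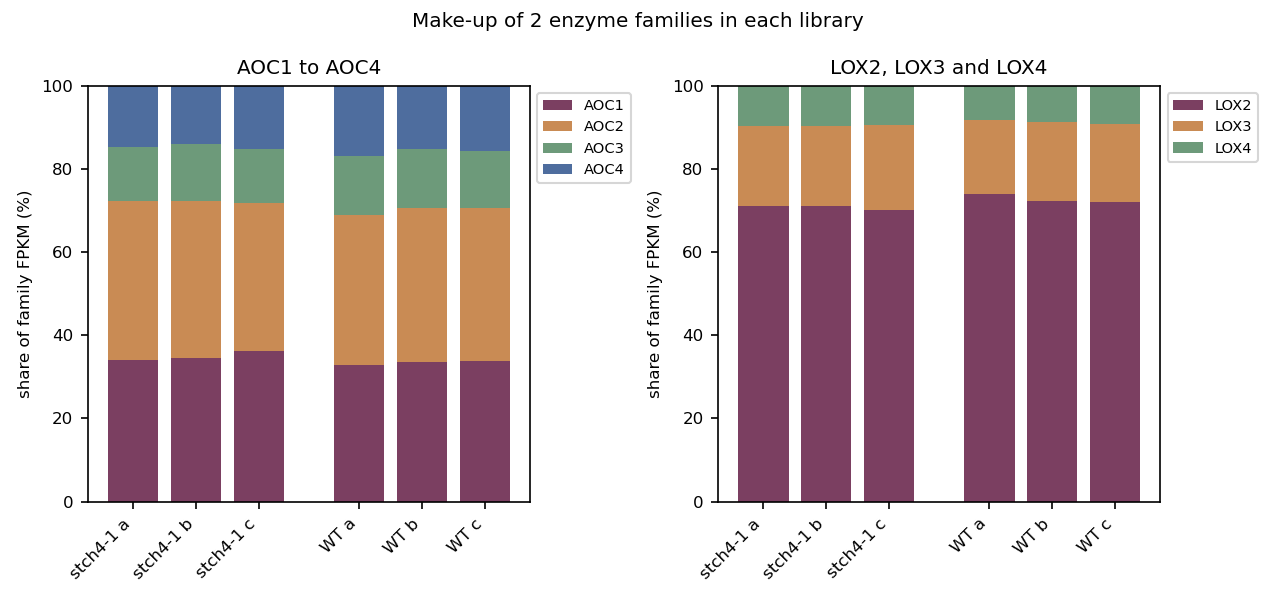
Stacked bars give each gene's share of the summed FPKM of its family in every library, with stch4-1 libraries left of WT libraries and the cyclases left of the lipoxygenases. Bar segments differ little between libraries, and the LOX2 segment ends at 71.1% or below in stch4-1 and at 72.2% or above in WT.

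The order of the fold changes depends on transcript length. Across all tested genes fold changes fell with length, and this trend was -0.10 at the length of LOX2 (3252 bases of exon) and 0.09 at that of AOC1 (1191 bases). With the trend removed, all 9 calls held, beside 14.5% of all genes called higher, and the log2 fold change was 0.31 for LOX2, 0.41 for LOX3, 0.46 for LOX4, 0.41 for AOS, 0.38 for AOC1 and 0.35 for AOC2. LOX4 then had the largest change, in place of AOC1. That the cyclases changed more than the lipoxygenases is therefore not shown.

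**Figure D3:**
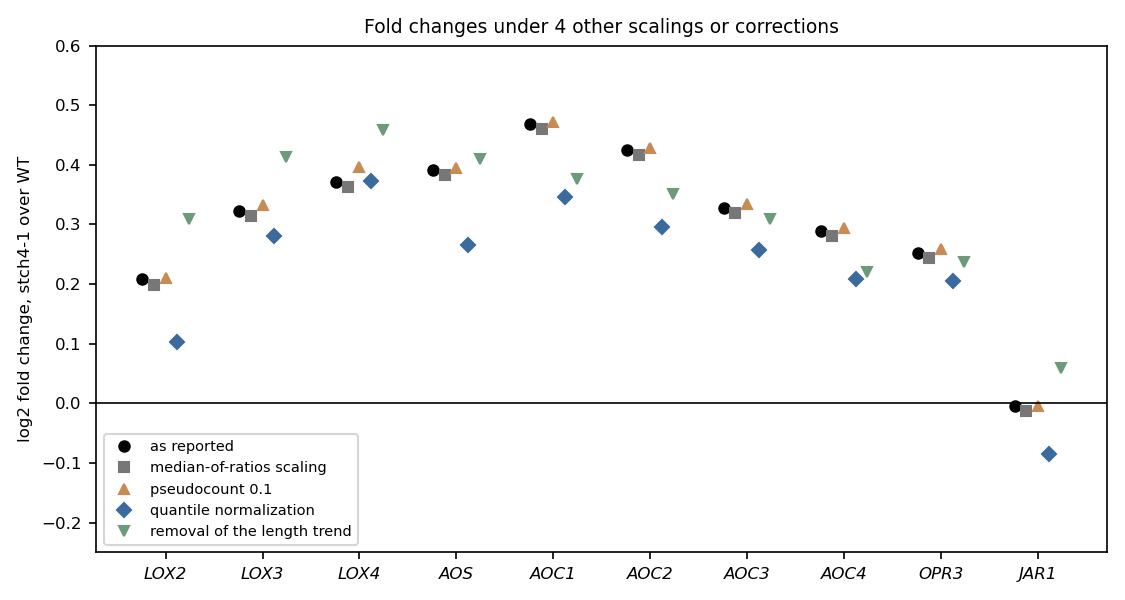
Points give the log2 fold change of each gene, stch4-1 over WT, as reported (black circles) and under 2 other scalings, another pseudocount and removal of the length trend. The direction of the 9 called genes is the same under each, quantile normalization gives the lowest value for 8 of them, and length-trend removal lifts LOX2, LOX3 and LOX4 and lowers AOC1 to AOC4.

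The rest of the pathway was followed with 67 genes in 7 lists, of which 61 were tested, 27 were called higher and 5 lower. The share over all tested genes, against which each list below is to be read, was 18.5% higher and 14.0% lower. Supply of linolenate had 2 of 6 desaturase genes higher and 0 lower, with a median log2 fold change of 0.01. FAD7, a plastid desaturase that makes linolenic acid, stood at 176 ± 6.67 FPKM in stch4-1 and 161 ± 1.98 FPKM in WT (SD, n = 3 each), and FAD2 of the endoplasmic reticulum at 336 ± 2.92 FPKM in stch4-1 and 310.1 ± 12.3 FPKM in WT (SD, n = 3 each). Both calls were marginal (limma adjusted p = 0.033 for FAD7 and 0.0471 for FAD2), each was lost in 5 of the 6 fits that left out 1 library, and under quantile normalization the changes turned to -0.031 for FAD7 and -0.032 for FAD2. Of 5 listed lipases, DAD1 and DGL were listed at 0 in every library, and 0 of the 3 tested were called in limma, with 1 of them, DALL4, at an unadjusted p under 0.05.

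Related oxylipin enzymes went both ways, with 3 of 7 higher and 3 lower and a median log2 fold change of -0.03. LOX6, the remaining 13-lipoxygenase, stood at 9.69 ± 0.2397 FPKM in stch4-1 and 7.93 ± 0.491 FPKM in WT (SD, n = 3 each, limma adjusted p = 0.0166), and its call was lost without WT b (adjusted p = 0.0508) or WT c (adjusted p = 0.0584). Of the 9-lipoxygenases, which feed other oxylipins, LOX1 rose (log2 fold change 0.22, limma adjusted p = 0.00575) and LOX5 fell (log2 fold change -0.55, limma adjusted p = 0.00464). Transcript of the hydroperoxide lyase gene HPL1 rose to 6.35 ± 0.692 FPKM in stch4-1, against 4.25 ± 0.138 FPKM in WT (SD, n = 3 each). Whether it gives active enzyme in these plants was not tested.

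OPR1 and OPR2, relatives of OPR3 that lie outside the peroxisome, moved against it. OPR1 read 64.7, 61.9 and 58.99 FPKM in stch4-1, against 81.02, 72.8 and 69.1 FPKM in WT (log2 fold change -0.26, limma adjusted p = 0.0162), and was not called when genes below the filter were also tested (limma adjusted p = 0.0938). OPR2 read 22.6, 21.6 and 21.5 FPKM in stch4-1, against 29.9, 29.6 and 26.8 FPKM in WT (log2 fold change -0.38, limma adjusted p = 0.00174). Both genes fell with no overlap between genotypes, as 22.7% of all tested genes did. They are close copies and neighbours on chromosome 1. Whether reads matched both of them, and how such reads would have been split, was not examined.

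Transport and beta-oxidation had 5 of 13 genes higher and 1 lower, around a median of 0.07 on the log2 scale. The thiolases KAT5 and KAT2, which close each round of chain shortening, rose. KAT5 stood at 146 ± 0.896 FPKM in stch4-1 and 119 ± 7.69 FPKM in WT (SD, n = 3 each, limma adjusted p = 0.00273). KAT2 stood at 121 ± 1.97 FPKM in stch4-1 and 108 ± 1.78 FPKM in WT (SD, n = 3 each, limma adjusted p = 0.00827), and was not called under quantile normalization (0.03, adjusted p = 0.498). OPCL1, a ligase that activates the OPDA product for beta-oxidation, ACX3 and ACX4 were called by a narrow margin (log2 fold changes of 0.19, 0.17 and 0.13, limma adjusted p = 0.0239, 0.02 and 0.0245). Those 3 calls were lost under quantile normalization and in 3 to 5 of the 6 fits that left out 1 library. ACX1, the oxidase most tied to jasmonate, was at 63.8 ± 3.79 FPKM in stch4-1 and 60.7 ± 1.05 FPKM in WT (SD, n = 3 each) and was not called. PXA1, the peroxisomal importer, was called lower (log2 fold change -0.17, limma adjusted p = 0.0383), but in none of the 6 fits that left out 1 library (adjusted p from 0.069 to 0.109), and it turned to 0.045 when the length trend was removed.

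**Figure D4:**
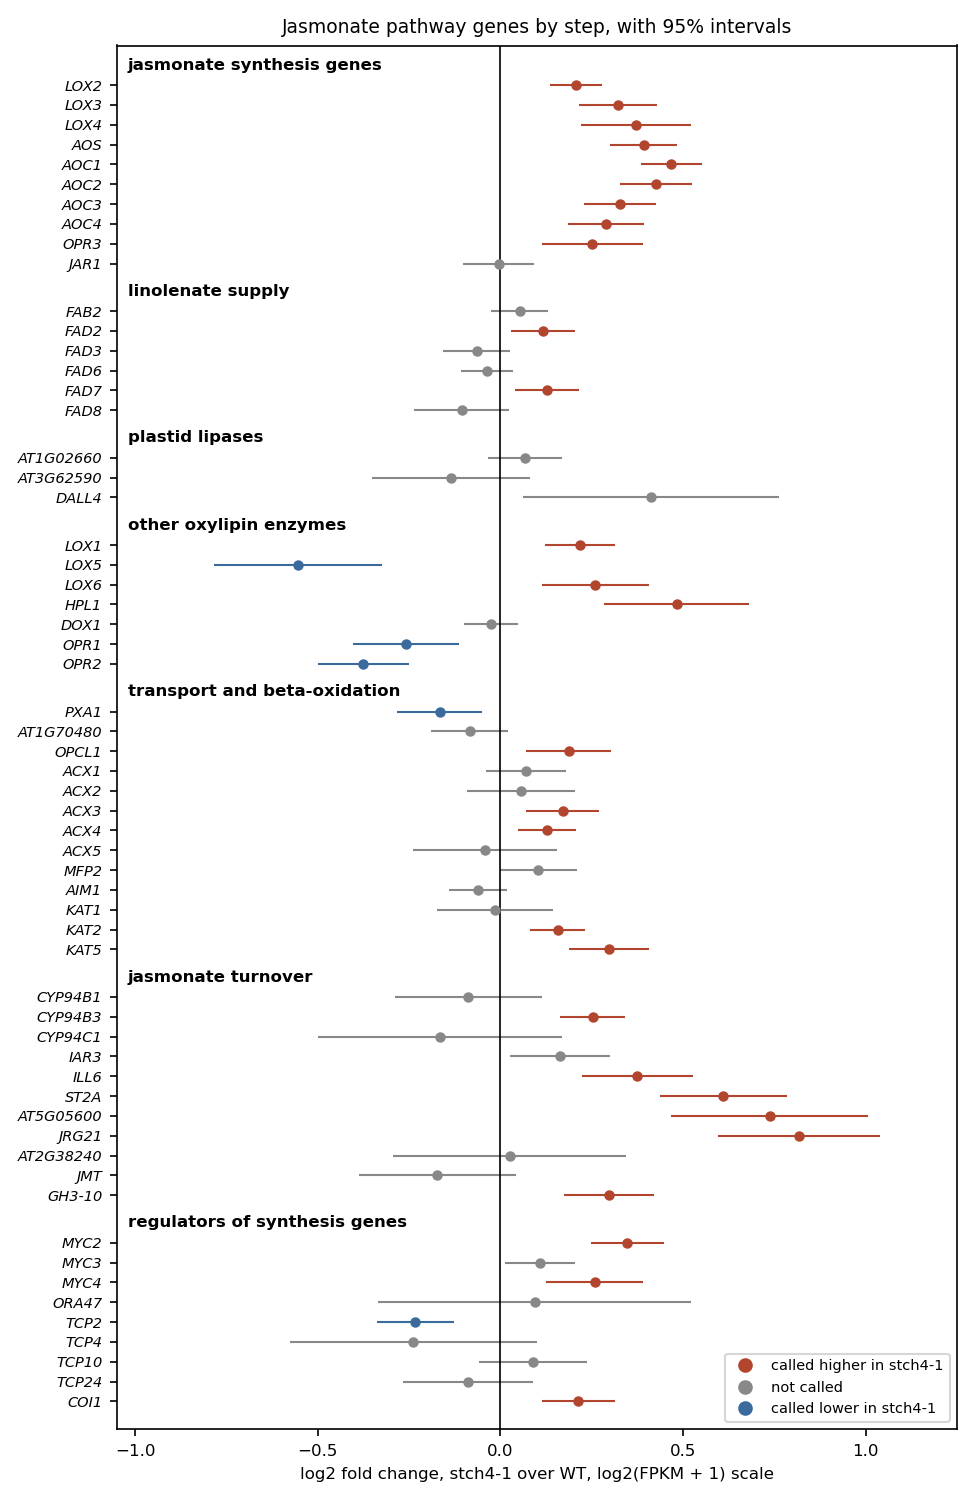
Points give log2 fold changes, stch4-1 over WT, with 95% limma intervals for the 10 synthesis genes and for the tested genes of 6 other lists, coloured by call. Synthesis genes other than JAR1 and a group of turnover genes lie to the right of 0, while related oxylipin enzymes lie on both sides.

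The list of jasmonate turnover genes held the largest changes of the pathway. It covers genes that inactivate or store jasmonates, and also GH3-10, from the family of the conjugating enzyme JAR1. Of 11 tested, 6 rose and 0 fell, with a median log2 fold change of 0.25. JRG21, a jasmonate-regulated gene, read 8.11, 7.40 and 7.49 FPKM in stch4-1, against 4.39, 3.32 and 4.09 FPKM in WT (log2 fold change 0.82, limma adjusted p = 0.000697). AT5G05600, annotated as a 2-oxoglutarate and iron-dependent oxygenase, read 24.5, 22.6 and 28.6 FPKM in stch4-1, against 14.4, 17.3 and 12.7 FPKM in WT (log2 fold change 0.74, limma adjusted p = 0.00263). ST2A, a sulphotransferase of hydroxyjasmonate, read 9.61, 9.89 and 9.91 FPKM in stch4-1, against 5.56, 6.75 and 5.97 FPKM in WT (log2 fold change 0.61, limma adjusted p = 0.000893). All 3 were higher in every stch4-1 library than in any WT library, as were 25.1% of all tested genes. They had the largest changes of the list, which makes such a gap likely, and each changed by more than AOC1.

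CYP94B3, which hydroxylates the isoleucine conjugate, rose to 45.5 ± 0.662 FPKM in stch4-1, against 38.1 ± 1.11 FPKM in WT (SD, n = 3 each). ILL6, an amidohydrolase that splits the conjugate, rose by 0.38 on the log2 scale. GH3-10, from the family of JAR1, rose by 0.30 (limma adjusted p = 0.00455), while JAR1 was not called. GH3-10 is among the 6 higher calls of the list. Whether it makes or removes active jasmonate in these plants was not tested. CYP94B1, CYP94C1, IAR3, AT2G38240 and JMT, which methylates jasmonic acid, were tested and not called, with log2 fold changes from -0.17 to 0.16. CYP94B2 and AT3G11180 were below the filter.

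Among 9 tested regulators 3 rose and 1 fell. MYC2, the main activator of jasmonate responses, read 56.5, 57.2 and 59.6 FPKM in stch4-1, against 43.1, 46.05 and 46.4 FPKM in WT (log2 fold change 0.35, limma adjusted p = 0.000902). MYC4 and the receptor gene COI1 rose by 0.26 and 0.21 on the log2 scale (limma adjusted p = 0.0114 and 0.00782), and MYC3, at 0.11, was not called. TCP2, of the TCP group that acts on LOX2, fell to 55.3 ± 2.58 FPKM in stch4-1, against 65.1 ± 2.04 FPKM in WT (SD, n = 3 each, limma adjusted p = 0.00657). TCP4 was at 13.1 ± 2.58 FPKM in stch4-1 and 15.6 ± 2.62 FPKM in WT (SD, n = 3 each), with overlapping libraries, and was not called. Of the JAZ repressor genes, whose transcripts are themselves induced by jasmonate, 8 of 12 tested rose and 0 fell, and their median was 0.33 on the log2 scale, equal to 2 decimals to that of the synthesis genes. The largest called changes were 0.48 for JAZ6, 0.45 for JAZ10, 0.39 for JAZ3 and 0.39 for JAZ12. The 4 not called were JAZ7 at 0.35, JAZ4 at -0.08, JAZ11 at -0.10 and JAZ8 at -0.21, so the list did not move as 1. The JAZ12 call was lost in 3 of the 6 fits that left out 1 library. It was also lost without the filter (limma adjusted p = 0.124) and with the length trend removed (limma adjusted p = 0.067). JAZ5, at 0.38, was not called without the filter (limma adjusted p = 0.152). Its call was also lost without stch4-1 a, stch4-1 b, WT a or WT b (limma adjusted p from 0.0708 to 0.0991).

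Markers of tissues were read beside these results, and again 18.5% of all tested genes were called higher and 14.0% lower. Of 15 root markers 13 were tested, 6 were called lower, 7 were not called and 0 were called higher, while 1 of the 7 had an unadjusted p under 0.05 in the upward direction. PRP3, a proline-rich wall protein of root hairs, had the largest gap in FPKM, at 33.1 ± 2.14 FPKM in stch4-1 and 54.1 ± 1.98 FPKM in WT (SD, n = 3 each). Lower calls also included MRN1, THAS1, SCR and CASP1. The root-hair genes EXPA7, EXPA18, RHD6 and COBL9 of the same list were not called. Their log2 fold changes were 0.03, 0.21, 0.23 and -0.11. The CASP1 call was lost without the filter (limma adjusted p = 0.145), without the eBayes trend (limma adjusted p = 0.0517) and in 4 of the 6 fits that left out 1 library (limma adjusted p from 0.0605 to 0.0937). The root markers summed to 195 to 202 FPKM in stch4-1 and 233 to 244 FPKM in WT. The largest differences of means within that sum, stch4-1 minus WT, were -21.1 FPKM for PRP3, -9.05 for CASP1 and -6.39 for THAS1. EXPA18 went the other way, at 3.29 FPKM.

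Of 8 leaf markers 1 was called higher and 1 lower, and their summed level overlapped, at 32103 to 41189 FPKM in stch4-1 and 31706 to 39337 FPKM in WT. Both leaf calls were lost under several alternatives. Of 7 flower markers 1 was tested and not called, and no library read above 1.48 FPKM for any of them. Their low summed level did not overlap, at 3.55 to 4.66 FPKM in stch4-1 and 2.29 to 2.89 FPKM in WT. AP1, a floral identity gene, stood at 0.572 ± 0.122 FPKM in stch4-1 and 0.0992 ± 0.0262 FPKM in WT (SD, n = 3 each), and PI, SEP1 and SEP2 were also higher in every stch4-1 library than in any WT library, all below the filter. AP3, AG and SEP3 overlapped between genotypes. Mean FPKM in stch4-1 and WT was 0.314 and 0.173 for AP3, 0.113 and 0.119 for AG, and 1.07 and 1.13 for SEP3. How many other genes below the filter separate in this way was not examined. Of 5 seed markers 0 were tested, LEC1 was listed at 0 throughout, and their summed level was 0.0859 to 0.213 FPKM in stch4-1 and 0.612 to 0.718 FPKM in WT. The seed sums did not overlap either. The part of the lower root and seed sums and the higher flower sum in the jasmonate results, the lower LOX5 included, was not tested.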

How the data were processed

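Gene-level FPKM values were deposited by the authors, 1 column for each of 6 libraries. They come from TopHat2 and Cufflinks on TAIR10, per the submitters' processing notes. For versions, strand setting, filters and shared reads, details were not given in the sources used here. The other 12 of 18 samples were not analysed here. Columns gave genotype and time, but count libraries from 0 where titles count from 1.

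Genes with at least 1 FPKM in 3 or more libraries (19289) were fitted with limma 3.58.1 in R 4.3.3 on log2(FPKM + 1), with 2 groups, an eBayes trend and 2-sided tests, and p-values were adjusted by Benjamini-Hochberg across the whole set. This scale understates changes of low genes. On simulated data with 200 of 19289 genes changed in this comparison, 79% of changes of 0.5 and 99% of changes of 1 (log2) were recovered, and 8.72% of calls were false.

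Symbols, exon lengths (32802 genes) and sequences come from the RefSeq annotation of TAIR10.1, joined by locus identifier only; the table holds no coordinates. Lists and members were chosen with earlier results of these data known. Named genes are all members, REIL2, and, from each list, all called genes or, where over 6 were called, the 4 with the largest change. ACX1, TCP4, MYC3, DALL4, AP1, PI, SEP1, SEP2 and other uncalled genes, and the called JAZ5, were named after their values were seen. Alternatives were another pseudocount, no filter, 2 scalings, no eBayes trend, removal of a lowess trend on exon length, each library left out and, added after seeing the data, a replicate block on the column number. Python 3.11.15 with pandas 2.3.3 made the joins.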

Additional observations from a re-analysis of the deposited data

How the results depend on the processing

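Of 130 values for the 10 synthesis genes under 13 alternatives, 127 stayed on the same side of the limma threshold. The 3 others are the calls of LOX2 under quantile normalization and of OPR3 without the filter or without WT c; the cause was not tested. The number of synthesis genes called higher was 8 or 9. Over all genes, the 3576 called higher became 2364 without the filter, a fit that also tests 14268 genes at low values, and 2614 higher against 3108 lower under quantile normalization, where the higher share of calls was 45.7% in place of 56.9%. In the 7 other pathway lists, 5 genes called lower became 9 under quantile normalization. Called changes that turned were FAD2 at -0.032, FAD7 at -0.031 and PSAD-2 at -0.036 under quantile normalization, and PXA1 at 0.045 with the length trend removed; RCA, not called as reported, was called at -0.19 under quantile normalization. Median-of-ratios scaling moved the median of all genes by less than 0.01. The table numbers its columns 0 to 2 in both genotypes, though not as the titles do. A fit with this number as a replicate block, chosen after seeing the data, called 3017 genes higher and 2063 lower. It called 9 synthesis genes higher. Deviations of same-numbered libraries correlated across genes at 0.053, -0.13 and -0.036, and those of differently numbered libraries at -0.11 to 0.149. Correlations over all genes cannot show whether the number marks a batch that acts on part of the genes. FPKM gives no counting intervals, and depth is known only as a ratio between libraries.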
